A study of Mus musculus with 5 samples.

Results

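TGF-β1-treated Tmsb4x knockout cells were set against vehicle-treated wild-type cells of B16F1, a mouse melanoma line. The comparison used 3 of the 5 arrays of the series: 1 of wild-type cells with vehicle, and 1 each of knockout clones 1 and 2, both given TGF-β1 at 10 ng/ml for 2 days. All cells were grown in Dulbecco's modified Eagle medium with 10% serum. Genotype and treatment differed together between the groups, so the effect of losing Tmsb4x and the effect of TGF-β1 cannot be told apart here, and the wild-type TGF-β1 array is not one of the groups compared. Each knockout line is a single clone measured once. The sample labels and the series title speak of a knockout and the design text of a knockdown, and which exon was edited is not given in the sources used here. The spread behind a p-value comes from differences between the 2 clones alone and mixes clonal with technical differences. Most of its weight lies with the other genes tested (8.28 prior degrees of freedom) and less with the gene's own clones (1 residual degree of freedom). A p-value is therefore no measure of how far a gene's own clones differ. The single vehicle array adds nothing to the spread.

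A gene counted as moving the same way when its log2 signal, taken relative to the array's 75th percentile, lay above the vehicle array in both clones or below it in both, with a probe well above background on each of the 3 arrays. Of 22904 genes named on the array, 12227 were measured on all 3, and 8656 of these moved the same way in both clones, 4226 (34.6%) higher and 4430 (36.2%) lower. Both differences are taken from the same vehicle array, so a deviation of that array alone moves both clones the same way, and these counts do not show that the clones resemble each other. At 2-fold or more in both clones, 336 genes (2.75%) were higher and 131 (1.07%) were lower. The p-values below come from limma, which tested 13498 genes and called 240 higher (1.78%) and 181 lower (1.34%), 421 in all (3.12%), at a Benjamini-Hochberg adjusted p of 0.05. Higher calls made up 57.0% of these, and 25% of the 188 calls after quantile normalization. A p that misses the threshold does not show that a gene did not differ. The test favours genes whose clones lie closer to each other than to vehicle. That trait in a called gene, where described below, is therefore no further support. "Rose" and "fell" are used only of genes called by that test and measured on all 3 arrays. Of the calls, 58 were genes well above background in both clones only and 131 with vehicle only. Such genes passed the filter through their bright side alone, which largely set their direction. Their p-values are therefore no support and are not printed. Of the 12227 genes measured on all 3 arrays, 182 were called higher and 39 lower. List counts below are to be read against the shares given here for all measured genes. For calls among genes measured on all 3 arrays, the like background is these 2 counts, since the shares over all genes tested include genes seen on one side only. Of 76 named genes called, 35 were called under each alternative setting that tested them. Genes seen on one side only were not tested under the filter that needs all 3 arrays. For those genes the count leaves that setting out.

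Thymosin β4, the product of Tmsb4x, is a small peptide that binds actin monomers and keeps them out of filaments. Monomeric actin also holds the coactivators MRTF-A and MRTF-B inactive, and MRTFs released from it enter the nucleus and, with the transcription factor SRF, drive genes of the contractile and adhesion machinery. TGF-β1 signals through a pair of receptor kinases and SMAD2 and SMAD3, which switch on matrix and protease-inhibitor genes together with inhibitors of the pathway itself. In melanoma cells TGF-β is known as a brake on proliferation and as an inducer of mesenchymal genes.

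Promoters of 4 genes are shown because the genes rose in the clones and the promoters carry a binding motif of a factor under study. The sequences are the 250 bases before the RefSeq start site in GRCm38.p6, written 5′ to 3′ on the gene's strand. For Tnnt2 (chr1:135836084-135836333, plus strand) and Ccn1 (chr3:145649986-145650235, minus strand), capitals mark the MCAT motif of TEAD factors, GGAATG, read here on the other strand. For Fhl1 (chrX:56779433-56779682, plus strand) and Rnd3 (chr2:51149112-51149361, minus strand), capitals mark a CArG box, the motif bound by SRF.
Tnnt2: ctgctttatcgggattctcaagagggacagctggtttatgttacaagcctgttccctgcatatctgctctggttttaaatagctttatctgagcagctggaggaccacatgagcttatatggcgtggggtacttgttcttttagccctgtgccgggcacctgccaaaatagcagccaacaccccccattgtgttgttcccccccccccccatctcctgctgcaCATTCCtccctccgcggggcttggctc
Ccn1: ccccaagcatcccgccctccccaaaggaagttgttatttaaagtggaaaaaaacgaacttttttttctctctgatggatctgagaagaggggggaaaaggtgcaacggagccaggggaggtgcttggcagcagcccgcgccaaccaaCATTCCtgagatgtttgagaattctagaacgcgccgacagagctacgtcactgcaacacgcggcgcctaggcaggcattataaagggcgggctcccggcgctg
Fhl1: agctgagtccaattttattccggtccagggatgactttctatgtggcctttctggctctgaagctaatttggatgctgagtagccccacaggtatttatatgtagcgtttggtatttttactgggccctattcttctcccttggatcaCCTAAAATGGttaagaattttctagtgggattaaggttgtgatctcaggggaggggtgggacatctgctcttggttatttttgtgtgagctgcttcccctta
Rnd3: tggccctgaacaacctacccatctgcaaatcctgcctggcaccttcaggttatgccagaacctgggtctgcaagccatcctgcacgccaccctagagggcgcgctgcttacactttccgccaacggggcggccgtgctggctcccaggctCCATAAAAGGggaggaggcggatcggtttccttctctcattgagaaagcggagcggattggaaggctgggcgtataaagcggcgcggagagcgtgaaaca
Tnnt2 and Fhl1 have 2 listed start sites each, of which 1 has the motif. A motif match is a description of these letters only. Searched on both strands, GGAATG stood in the promoters of 14.4% of 27025 genes, of 12.6% of 9843 genes measured on all 3 arrays, of 17.6% of 272 genes at least 2-fold higher in both clones and of 9.38% of 96 at least 2-fold lower. A CArG box stood in 1.62% of all promoters, 1.43% of those of measured genes, 2.21% of those of higher genes and 3.12% of those of lower genes. The SMAD-binding letters CAGAC were found in 45.8% of all promoters, 45.3% of measured, 54.8% of higher and 45.8% of lower genes. For the hypoxia response core ACGTG the shares were 25% of measured and 24.3% of higher genes, for the MITF motif CATGTG 9.33% and 12.5%, and for the cell-cycle element TTTGAA 12.9% and 15.1%.

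All 7 markers used to define melanocytic cells (Pmel, Mlana, Tyr, Tyrp1, Dct, Mitf, Sox10) were well above background on the 3 arrays, at log2 levels between -0.18 and 9.97. Between 48.2% and 52.2% of probes per array were well above background and 0 spots were saturated. A probe had to reach a signal of 26.0 to count as well above background on clone 2, against 15.5 on the vehicle array and 15.3 on clone 1 (the lowest signals so called), so dim genes were more readily lost on clone 2. The file headers place the arrays on 1 slide in 1 scan, so no batch could be tested. With 3 arrays, their number limits the precision, and an exact permutation of 2 against 1 arrays cannot go below a one-sided p of 0.333. In RNA of whole cultures, fewer cells of a type and less RNA per cell cannot be told apart.

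The targeted gene did not separate the groups. Tmsb4x had a log2 level of 5.05 on the vehicle array, 5.44 in clone 1 and 4.28 in clone 2. Clone 1 thus lay above the vehicle array by 0.39 and clone 2 below it by 0.76 (limma adjusted p = 0.943). Its probe may lie outside the edited part of the gene, so the level checks neither the labels nor the loss of the protein. On the other arrays of the series, Tmsb4x stood at 7.12 in wild-type cells with TGF-β1 and at 6.79 on the array titled as TGF-β1 with the MRTF pathway inhibitor CCG1423, above both clones. The treatment field of that last array names CCG1423 alone. Tmsb10, which encodes the related actin-binding peptide thymosin β10, was at 8.75, 9.22 and 8.96 in vehicle, clone 1 and clone 2.

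The clones resembled each other about as closely as each resembled the vehicle array over most genes. The median absolute log2 difference was 0.26 between the clones, 0.32 between clone 1 and vehicle and 0.26 between clone 2 and vehicle. The 2 clones differed from each other by at least 2-fold in 505 genes (4.13%). Clone 1 had 613 genes at least 2-fold above vehicle and 385 below, and clone 2 had 555 above and 256 below. These lists share the vehicle array. Among the 467 genes at 2-fold or more in both, 449 had a smaller difference from vehicle that exceeded the difference between the clones, and 419 had clones within 2-fold of each other. At 4-fold or more in both clones 70 genes were higher and 15 lower, and at 8-fold or more 20 were higher and 1 was lower. At the edge of the 2-fold threshold, Met was just inside (2.01-fold in the closer clone) and Zfand2a just outside (1.999-fold).

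**Figure D1:**
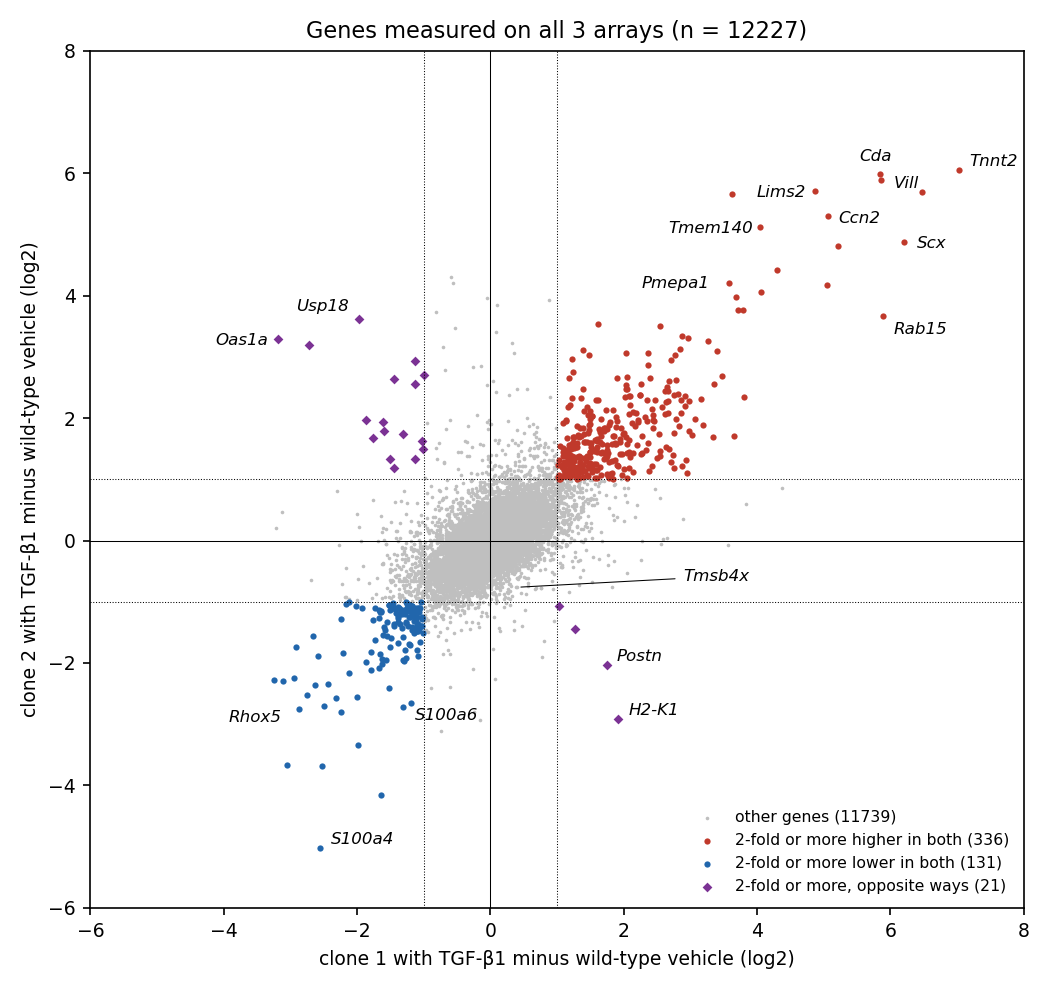
Log2 difference of each clone with TGF-β1 from the wild-type vehicle array, clone 1 on the x axis and clone 2 on the y axis, 1 point per gene measured on all 3 arrays (12227). Dotted lines mark 2-fold; 336 genes lie beyond it as higher and 131 as lower in both clones, 21 lie beyond it in opposite directions, and Tmsb4x lies within it.

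TGF-β and SMAD target genes had the highest median of all lists by the mean of the clones. Of 22 members measured on all 3 arrays, 18 were above vehicle in both clones and 3 below in both, and the median difference was 1.27 in clone 1 and 0.98 in clone 2, against 0.00 and -0.02 over all measured genes. The test called 10 of these 22 higher and 0 lower, against 182 higher and 39 lower among all 12227 genes measured on the 3 arrays. Col1a1 was also called, but it was not well above background with vehicle, so that call is no support. Ccn2, a matricellular growth factor, had log2 levels of -0.80 with vehicle, 4.26 in clone 1 and 4.49 in clone 2. The clones were 33.5-fold and 39.2-fold higher (mean log2 difference 5.18, SE 0.28, limma adjusted p = 3.88e-05). The gap from vehicle was many times the gap between clones.

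Several inhibitors of the pathway rose. Pmepa1, a membrane protein that sequesters SMADs, was at 2.24 with vehicle, 5.82 in clone 1 and 6.44 in clone 2, or 12-fold and 18.4-fold higher (limma adjusted p = 0.000454). Smad7, the inhibitory SMAD that targets the TGF-β receptor, was at -0.96, 1.22 and 1.13, or 4.53-fold and 4.26-fold (adjusted p = 0.00598). The other inhibitory SMAD, Smad6, was at -0.85, 1.57 and 1.30 (adjusted p = 0.00506). Both clones exceeded the vehicle level by over 2 log2 units in each of these, and the clones themselves lay close together. Skil, which encodes the SMAD corepressor SnoN, was at 0.65, 3.0 and 2.95 (adjusted p = 0.00331), and Tgif1, another SMAD corepressor, at 1.69, 3.03 and 3.06 (adjusted p = 0.0313). The corepressor gene Ski, at 2.92, 3.22 and 3.16, was not called.

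A growth factor and further target genes were also called. Pdgfb, the B chain of platelet-derived growth factor, was at -2.72 with vehicle, -0.18 in clone 1 and 0.78 in clone 2, or 5.84-fold and 11.4-fold higher (limma adjusted p = 0.00662). Tsc22d1, a leucine zipper protein first cloned as a TGF-β-stimulated transcript, was at 4.60, 6.43 and 6.31 (adjusted p = 0.0132). Spsb1, an adaptor of ubiquitin ligases, was at -0.87, 0.88 and 0.95 (adjusted p = 0.0147). Members that did not pass the test included Col1a2 (differences of 1.21 and 0.98), Bhlhe40 (1.06 and 0.90), Junb (1.87 and 0.72) and the fibronectin gene Fn1 (0.58 and 0.43). Id1, an inhibitor of basic helix-loop-helix factors, was the only measured member of the list at least 2-fold lower in both clones (-1.27 and -1.0, adjusted p = 0.18). Snai2 and Bambi differed in sign or size between the clones, with -0.14 and -1.23 for Snai2 and 0.24 and -0.57 for Bambi.

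**Figure D2:**
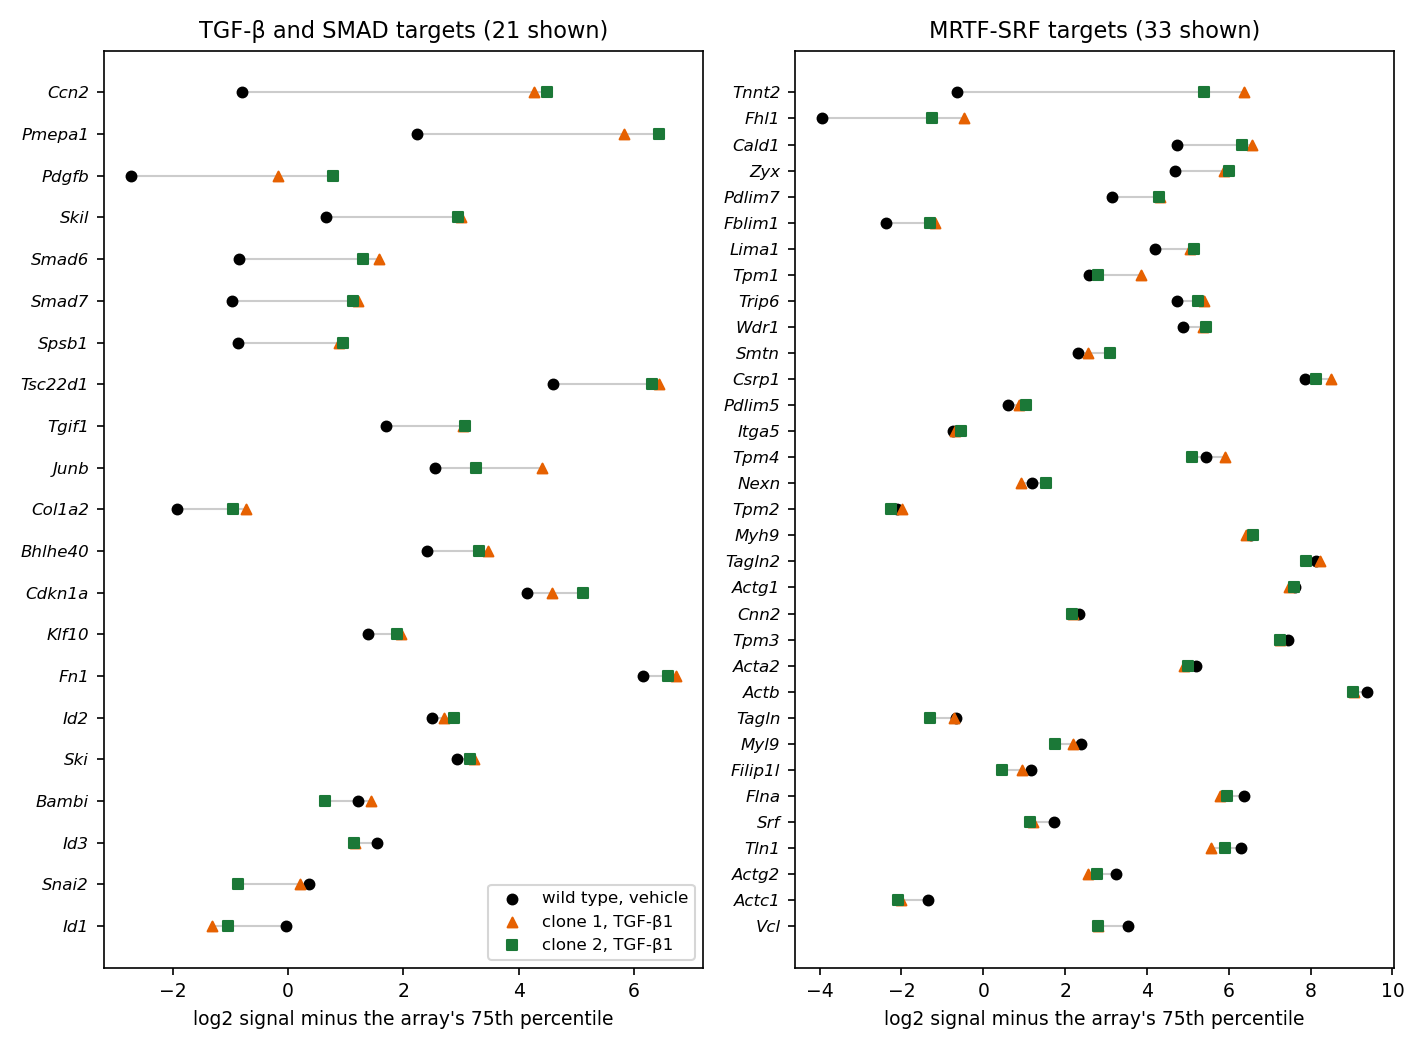
Log2 signal minus the array's 75th percentile (x axis) for 21 of the TGF-β and SMAD targets and the 33 MRTF-SRF targets measured on all 3 arrays, with 1 point per array and genes ordered by the mean difference of the clones from vehicle. Ccn2 and Pmepa1 lead the first panel by several log2 units, while Tnnt2 leads the second, in which most members lie near their vehicle level.

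The components that carry the TGF-β signal did not pass the test. Of 23 measured ligands, receptors and SMADs, 10 were above and 11 below vehicle in both clones, with median differences of 0.04 and -0.13, and limma called 0 of them in either direction. Tgfb3, a TGF-β ligand, was at 1.31 with vehicle, 2.34 in clone 1 and 2.64 in clone 2 (adjusted p = 0.0714). The type II receptor gene Tgfbr2 was at 2.58, 1.12 and 1.49, 2.75-fold and 2.12-fold below vehicle (adjusted p = 0.0604). Both clones lay on the same side of vehicle in each, yet neither gene was called. The type I receptor gene Tgfbr1 differed by -0.24 and -0.13, Smad2 by -0.39 and -0.27, Smad3 by 0.71 and 0.80, and Smad4 by -0.18 and -0.05.

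MRTF-SRF targets as a list stayed near the vehicle level, with a few members far above it. Of 33 measured, 14 were above and 14 below vehicle in both clones, the medians were 0.06 and -0.02, 6 were at least 2-fold higher and 0 at least 2-fold lower, and the test called 3 higher. Tnnt2, which encodes cardiac troponin T and whose MCAT-bearing promoter is printed above, ranked first among genes measured on all 3 arrays by the smaller of the 2 clone differences. Its levels were -0.65 with vehicle, 6.38 in clone 1 and 5.40 in clone 2, or 131-fold and 66.5-fold higher (mean 6.54, SE 0.39, limma adjusted p = 5.99e-05). Fhl1, a LIM-domain protein of muscle with a CArG box in the printed promoter, was at -3.94, -0.46 and -1.25, or 11.1-fold and 6.43-fold higher (adjusted p = 0.00869). Its vehicle level lay near the lowest signal counted as well above background, so these folds are uncertain. Cald1, the actin- and myosin-binding protein caldesmon, was at 4.73, 6.56 and 6.31, or 3.55-fold and 2.99-fold higher (adjusted p = 0.017).

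The most widely used readouts of MRTF-SRF activity did not follow these 3 genes. Acta2, smooth muscle actin, was at 5.20 with vehicle, 4.90 in clone 1 and 4.99 in clone 2 (limma adjusted p = 0.847). Tagln, the actin-bundling protein transgelin, was at -0.65, -0.71 and -1.30 (adjusted p = 0.846). Srf itself was at 1.72, 1.21 and 1.15 (adjusted p = 0.516). In all 3 genes both clones lay below vehicle by less than 1 log2 unit, and none passed the test. Vcl (vinculin) differed by -0.73 and -0.73, Myl9 (myosin light chain) by -0.20 and -0.65 and Actb (β-actin) by -0.32 and -0.34. The adhesion proteins Zyx (1.19 and 1.33, adjusted p = 0.0573), Pdlim7 (1.16 and 1.16, adjusted p = 0.0633) and Fblim1 (1.20 and 1.08, adjusted p = 0.242) were at least 2-fold higher in both clones without being called. Another measured probe for Pdlim7 gave 0.58 and 0.49. Tgfb1i1, a focal adhesion adaptor, was well above background with vehicle and in neither clone. It was at least 3.73-fold lower in clone 1 and at least 2.57-fold lower in clone 2. A fold written "at least" sets the bright side against the higher of 2 values on the dim array, the gene's own signal and the lowest signal well above background. Another probe for Tgfb1i1 was well above background on 0 arrays, vehicle included.

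Among 19 measured regulators of MRTF and SRF, the test called 2 higher and 0 lower. Rnd3, an atypical small GTPase that opposes the kinase ROCK, was at -0.83 with vehicle, 0.85 in clone 1 and 0.75 in clone 2 (limma adjusted p = 0.0228), and its promoter with a CArG box is printed above. Limk2, a kinase that inactivates the actin-severing protein cofilin, was at -0.45, 0.86 and 1.27 (adjusted p = 0.0372, called under 5 of 10 alternative settings). For both genes the clones lay together and above vehicle. Elk3, an ETS partner of SRF, was 2.21-fold and 2.57-fold higher (adjusted p = 0.0508). The coactivator genes differed little, Mrtfa by 0.17 and 0.11 and Mrtfb by 0.55 and 0.77; another probe for Mrtfb gave 1.5 and 0.30.

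Genes of actin turnover as a list lay near the vehicle level, with calls in both directions. Of 32 measured genes of actin monomer and filament turnover, 8 were above and 14 below vehicle in both clones. Over all measured genes, 34.6% were above and 36.2% below. The medians were -0.05 and -0.06, and the test called 2 higher and 1 lower. Capg, which caps filament ends, was at 0.78 with vehicle, 2.99 in clone 1 and 2.34 in clone 2, or 4.61-fold and 2.94-fold higher (limma adjusted p = 0.0167). Pls3, the filament-bundling plastin, was at 3.30, 4.55 and 4.90 (adjusted p = 0.0341). Gsn, the filament-severing protein gelsolin, was at 5.46, 3.80 and 4.19, or 3.17-fold and 2.41-fold lower (adjusted p = 0.032). The profilin gene Pfn2 was at 1.82, 3.03 and 2.88 and missed the threshold (adjusted p = 0.0702).

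YAP-TEAD targets included 4 genes that rose among 18 measured, and 0 that fell. Of 12227 genes measured on all 3 arrays, 182 were called higher and 39 lower. The medians were 0.30 and 0.34. Besides Ccn2, which both target lists hold, Ccn1, a matricellular protein with the MCAT motif in its printed promoter, was at 1.83 with vehicle, 3.43 in clone 1 and 2.98 in clone 2 (limma adjusted p = 0.0443, called under 4 of 10 alternative settings). F3, the coagulation starter tissue factor, was at 1.89, 3.48 and 3.42, or 3.02-fold and 2.88-fold higher (adjusted p = 0.0165). Gadd45b, a stress sensor, was at -0.72, 0.87 and 0.73 (adjusted p = 0.0308). All 4 genes had both clones above vehicle by more than the gap between clones, a pattern that the test itself favours. The receptor kinase gene Axl, also on the list, differed by -0.58 and -0.68 with the probe used, while another measured probe gave 0.31 and 0.23.

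Secreted protease inhibitors were among the genes that rose, while collagens and other matrix genes gave few calls. Of 19 measured proteases and inhibitors, 3 rose. Serpine2 (protease nexin-1) was at 4.04 with vehicle, 6.86 in clone 1 and 6.44 in clone 2 (limma adjusted p = 0.00332), and Serpinf1, which encodes the antiangiogenic factor PEDF, at 3.20, 6.55 and 4.89 (adjusted p = 0.0428). Plau and Mmp16, proteases of the list, were well above background with vehicle and in neither clone. Plau, the plasminogen-activating protease urokinase, was at least 17.1-fold lower in clone 1 and at least 11.8-fold lower in clone 2 (vehicle level -0.10). Mmp16, a membrane-bound metalloprotease, was at least 20.6-fold and 14.2-fold lower (vehicle level 0.16). For both genes another probe was well above background on 0 arrays, vehicle included, so each difference rests on 1 probe seen on 1 array.

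Among collagens, laminins and matrix glycoproteins, 24 were measured on all 3 arrays, 9 above and 9 below vehicle in both clones, with medians of -0.03 and -0.08. The calls lay with genes seen on one side only. Col1a1, the α1 chain of type I collagen, was at 2.33 in clone 1 and 0.93 in clone 2. It was not well above background with vehicle, and the clones were at least 67.1-fold and 25.4-fold higher. Col11a1 was at least 8.53-fold and 4.78-fold higher. Lum, the proteoglycan lumican, was seen with vehicle only (level -1.78) and was at least 5.35-fold and 3.69-fold lower. Thbs1, which encodes the TGF-β activator thrombospondin 1, was at -1.81 with vehicle, -0.42 in clone 1 and 0.66 in clone 2 (limma adjusted p = 0.0597). Of 12 fibroblast markers on the array, only S100a4 was measured on all 3 arrays. Well above background were 3 with vehicle, 3 in clone 1 and 2 in clone 2. The list's summed linear level relative to the 75th percentile was 121 with vehicle, 20.8 in clone 1 and 4.16 in clone 2. S100a4 made up most of that sum on each array, so the lower sums describe that gene and not the list. Periostin (Postn) gave no single answer, since the probe used was at 1.74 and -2.03 from vehicle and another probe at 5.14 and 1.63.

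Of 15 measured integrins and adaptors, 1 was called, against 221 of 12227 genes measured on all 3 arrays. Lims2, the integrin-linked kinase adaptor PINCH-2, was at -0.43 with vehicle, 4.44 in clone 1 and 5.28 in clone 2, or 29.1-fold and 52.3-fold higher (limma adjusted p = 0.000152). Its paralogue Lims1 (PINCH-1) was at 2.97, 2.88 and 2.87. The α4 integrin gene Itga4 was at 1.38, -0.04 and 0.20, 2.67-fold and 2.26-fold below vehicle (adjusted p = 0.0622). In the 11 measured genes of epithelial-mesenchymal transition and cadherins the medians were -0.04 and -0.01 and 0 genes measured on all 3 arrays were called. N-cadherin (Cdh2) differed by 0.91 and 0.72 (adjusted p = 0.245), and Cdh1 was well above background neither with vehicle nor in both clones. Jup, the junction protein plakoglobin, was seen with vehicle only, while its other probe was well above background on 0 arrays.

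Genes of the S100 family, small calcium-binding proteins, had calls in both directions, with 2 of 9 measured members called higher and 1 lower. Over the 12227 genes measured on all 3 arrays, 182 were called higher and 39 lower. S100a4, a marker tied to metastasis and also expressed by fibroblasts, was at 6.91 with vehicle, 4.36 in clone 1 and 1.89 in clone 2, or 5.86-fold and 32.5-fold lower (limma adjusted p = 0.0283). S100a6 was at 4.15, 2.83 and 1.42 (adjusted p = 0.065). In both genes clone 2 lay well below clone 1, so the size of the difference varied between clones. S100b, a melanocytic and glial marker, was at 0.04, 3.06 and 1.77 and rose (adjusted p = 0.0255), as did S100a1 at 2.46, 3.91 and 3.84 (adjusted p = 0.0258). Of 5 measured Schwann and neural crest markers, S100b was the 1 gene called, while the myelin gene Mbp was at 2.24, 1.21 and 0.85 (adjusted p = 0.0756). The summed level of that marker list was 9.84 with vehicle, 13.2 in clone 1 and 7.44 in clone 2.

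Pigment genes were not called. Over 28 measured melanocyte genes the medians were -0.01 and 0.32 and limma called 0. Mitf, the lineage transcription factor, was at 6.59 with vehicle, 6.80 in clone 1 and 6.90 in clone 2 (adjusted p = 0.867). The melanosome protein genes Pmel and Mlana differed by 0.35 and 0.32 and by 0.99 and 1.09 (adjusted p = 0.831 and 0.223). The clones parted at Tyr, the rate-limiting enzyme of melanin synthesis (0.20 and -1.09), and at the melanosomal transporter Oca2 (-2.0 and 0.43). Met, the receptor of hepatocyte growth factor, was at 5.11, 2.98 and 4.10 (adjusted p = 0.103). Over the other marker lists, 5 of 16 immune markers, 2 of 11 endothelial and 2 of 12 epithelial markers were measured on all 3 arrays, and limma called 0 of them. Their summed levels ran from 35.7 to 44.2, from 16.1 to 17.4 and from 7.57 to 12.5.

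**Figure D3:**
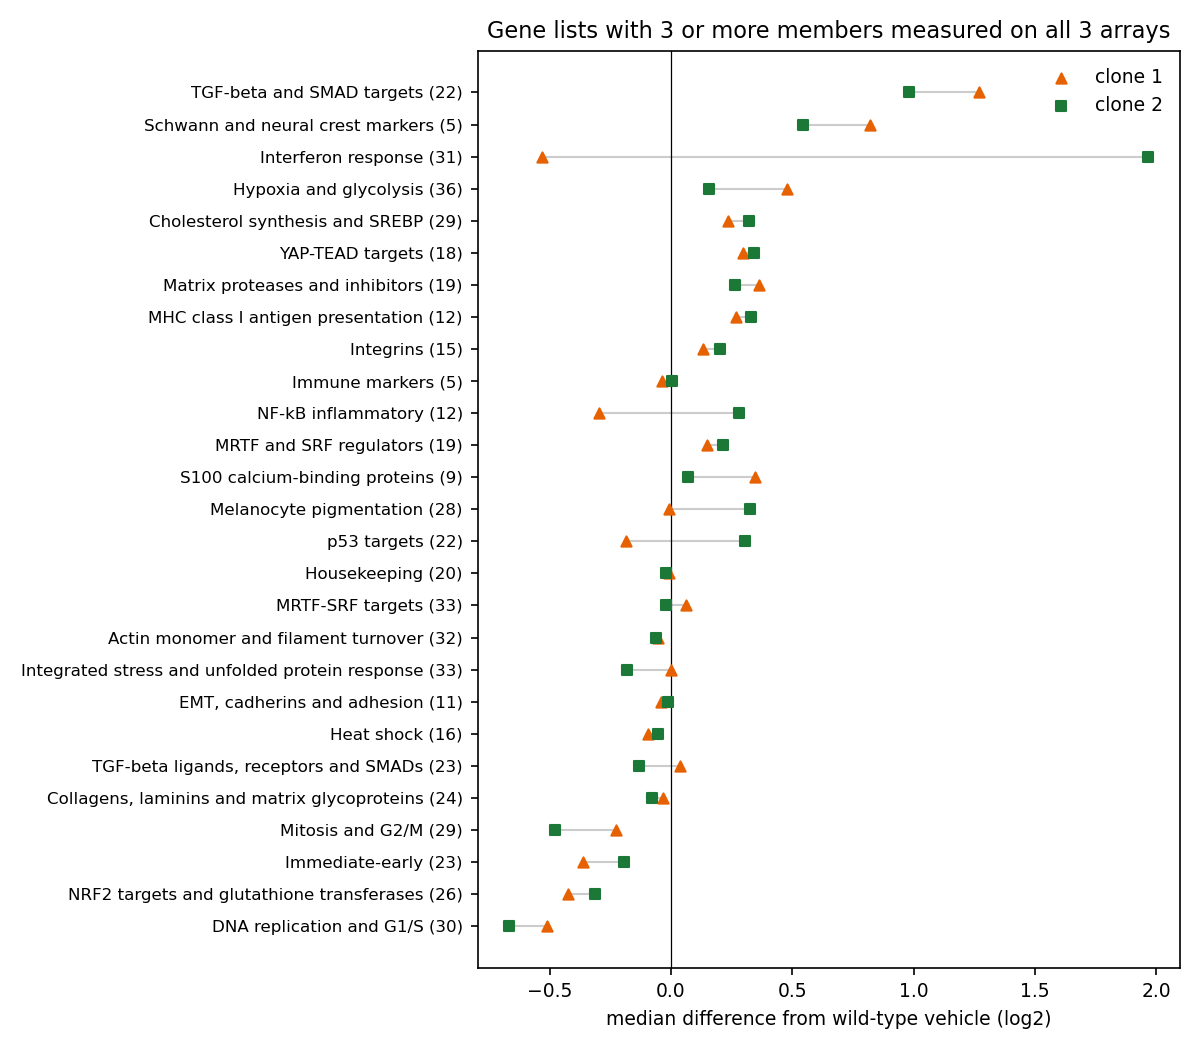
Median log2 difference from the wild-type vehicle array (x axis) over the measured members of each gene list with 3 or more of them, with triangles for clone 1 and squares for clone 2 and the number of members in brackets. TGF-β and SMAD targets stand highest by the mean of the clones (1.27 and 0.98), DNA replication genes lowest (-0.51 and -0.67), and the interferon list splits the clones (-0.53 and 1.96).

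Most cell-cycle genes were below vehicle in both clones, mainly by small amounts. Of 30 measured genes of DNA replication and G1/S, 27 were below vehicle in both clones and 0 above in both, with medians of -0.51 and -0.67, and 1 was called. That gene was Ccnd1, which encodes the G1 regulator cyclin D1, at 4.90 with vehicle, 2.67 in clone 1 and 3.62 in clone 2, or 4.70-fold and 2.43-fold lower (limma adjusted p = 0.0442, called under 5 of 10 alternative settings). Of 29 measured mitosis and G2/M genes, 22 were below vehicle in both clones and 0 above in both, with medians of -0.22 and -0.48, and limma called 0. Examples are Mcm2, part of the replicative helicase (-0.54 and -0.62), and Mki67, the proliferation antigen Ki-67 (-0.70 and -0.66). Myc was at 2.46, 1.01 and 1.36, 2.73-fold and 2.14-fold below vehicle, and missed the threshold (adjusted p = 0.0589). Over all measured genes, 36.2% were below vehicle in both clones.

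Hypoxia and glycolysis genes leaned the other way. Of 36 measured, 23 were above vehicle in both clones and 6 below in both, with medians of 0.48 and 0.16, and limma called 3 higher. Over all measured genes, 34.6% were above vehicle in both clones and 36.2% below. Aldoc, the glycolytic enzyme aldolase C, was at 2.31 with vehicle, 5.10 in clone 1 and 4.30 in clone 2, or 6.91-fold and 3.97-fold higher (adjusted p = 0.00747). Hif1a, the oxygen-regulated transcription factor, was at 3.71, 5.60 and 5.28 (adjusted p = 0.0146), and the vasodilator peptide gene Adm at -0.42, 1.23 and 1.29 (adjusted p = 0.0165). Vegfa differed by 1.16 and 0.57 (adjusted p = 0.281), and the central glycolytic gene Gapdh by 0.01 and 0.01 with the probe used. Other measured Gapdh probes gave 0.21 to 0.44 in clone 1 and 0.08 to 0.33 in clone 2. The 29 measured genes of cholesterol synthesis were above vehicle in both clones in 21 cases and below in 5, with medians of 0.23 and 0.32, and limma called 0.

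Antioxidant genes under NRF2 and glutathione transferases were below vehicle in both clones in 17 of 26 measured members and above in 7. Over all measured genes, 36.2% were below and 34.6% above. The list's medians were -0.42 and -0.31, and limma called 2 lower. Gstm1, a glutathione transferase, was at 3.39 with vehicle, 2.03 in clone 1 and 2.03 in clone 2 (adjusted p = 0.0308), and Osgin1, an oxidative stress response gene, at 1.92, 0.48 and 0.52 (adjusted p = 0.032). The clones lay at nearly the same level in both. The cystine transporter gene Slc7a11 was at -0.71, -1.93 and -2.40 (adjusted p = 0.141), while Nqo1 (0.13 and -0.00) and Hmox1 (0.37 and 0.23) lay near or above vehicle. Gstm3, a transferase outside the list, was at 4.14, 2.81 and 2.95 (adjusted p = 0.044). Immediate-early genes had medians of -0.36 and -0.19 over 23 measured members; Ier5 rose (2.62, 4.17 and 4.08, adjusted p = 0.0199), and Egr1, Myc and Nr4a1 were at least 2-fold lower in both clones without passing the test.

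Interferon-response genes separated the clones. Of 31 measured, 23 were below vehicle in clone 1 and above it in clone 2, the medians were -0.53 and 1.96, 27 were at least 2-fold higher in clone 2, 10 were at least 2-fold lower in clone 1, and limma called 0 in either direction. Oas1a, a sensor of double-stranded RNA, was at 1.43 with vehicle, -1.76 in clone 1 and 4.72 in clone 2. Usp18, which removes the ubiquitin-like protein ISG15 from its targets, was at 0.31, -1.67 and 3.92. Irf7, the transcription factor that amplifies interferon production, was at -0.62, -1.15 and 2.85. In all 3 the vehicle level lay between the clones, and the adjusted p-values were 0.998, 0.928 and 0.74. Isg15, the ubiquitin-like protein itself, was at 2.97, 3.05 and 6.37. Cxcl10, an interferon-induced chemokine, was the only list member at least 2-fold higher in both clones, at 0.84, 2.01 and 3.03 (adjusted p = 0.0635).

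Across the array, 17 genes (0.139%) were at least 2-fold lower in clone 1 and 2-fold higher in clone 2, and 10 of the 17 were on the interferon list. The reverse pattern held for 4 genes. Among these was H2-K1, a class I major histocompatibility gene, at 1.30 with vehicle, 3.21 in clone 1 and -1.62 in clone 2, for which another probe gave differences of 0.90 and -0.47. Class I genes share sequence, so this value is uncertain. The 12 measured genes of class I antigen presentation had medians of 0.27 and 0.33, and limma called 0. The 12 measured inflammatory NF-κB targets had medians of -0.30 and 0.28; Tnfaip3, which ends NF-κB signalling, was 3.53-fold and 2.14-fold higher (adjusted p = 0.131). Il6, seen in both clones and not with vehicle, was at least 4.27-fold and 4.56-fold higher.

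**Figure D4:**
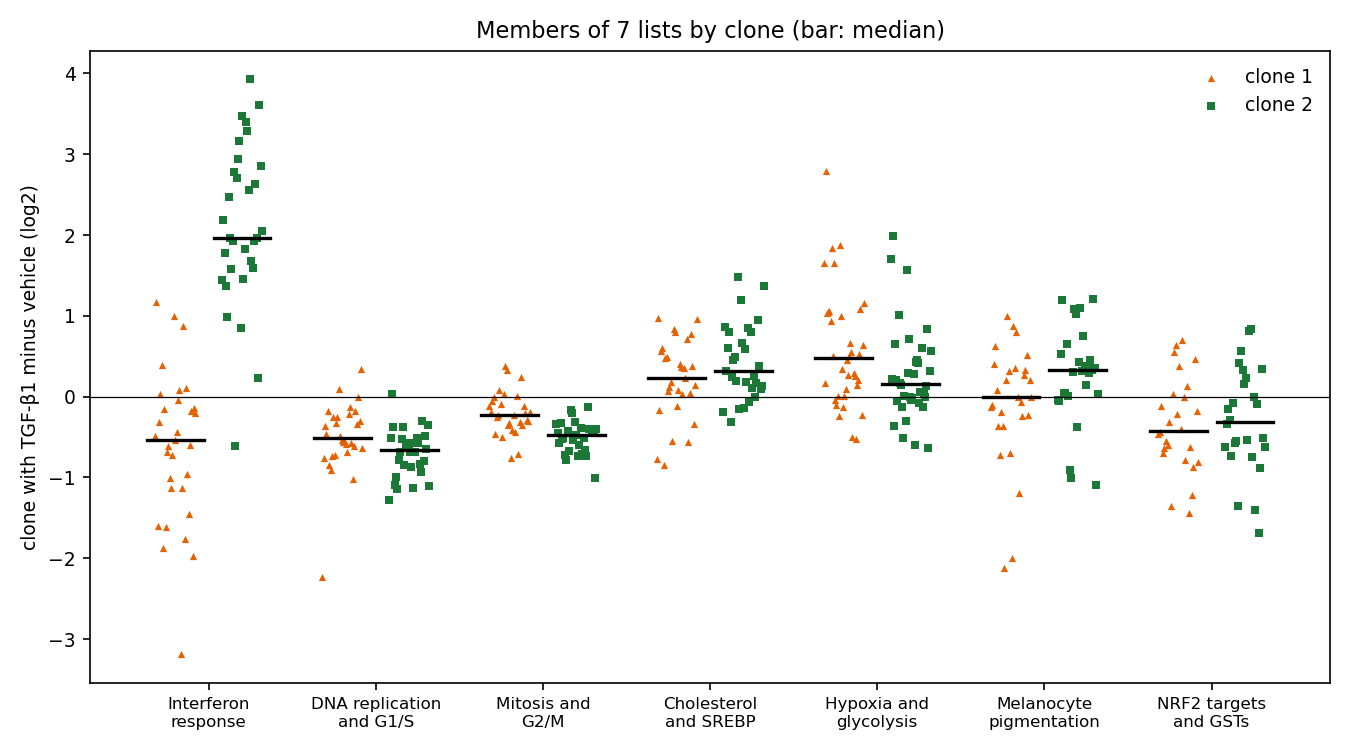
Log2 difference from the wild-type vehicle array (y axis) of every measured member of 7 gene lists, triangles for clone 1, squares for clone 2, black bars for the median. The interferon points of clone 2 lie mostly above 0 and those of clone 1 mostly below it, and DNA replication members lie below 0 in both clones with few exceptions.

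Lists of p53 targets (22 measured, medians -0.18 and 0.31), stress and unfolded protein response genes (33, medians 0.00 and -0.18) and heat shock genes (16, medians -0.10 and -0.06) had 0 genes called by limma. The 20 housekeeping genes had medians of -0.01 and -0.02, and 0 were called; the transferrin receptor gene Tfrc among them was at 3.56 with vehicle, 2.13 in clone 1 and 2.44 in clone 2 (adjusted p = 0.0513).

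Outside the lists, the strongest rises measured on all 3 arrays joined genes of unrelated functions. Cda, the pyrimidine salvage enzyme cytidine deaminase, was at -3.76 with vehicle, 2.09 in clone 1 and 2.23 in clone 2, or 57.7-fold and 63.6-fold higher (limma adjusted p = 3.88e-05). Vill, a villin-like actin-binding protein, was at -4.09, 1.78 and 1.81 (adjusted p = 3.88e-05). Scx, the tendon transcription factor scleraxis, was at -2.67, 3.54 and 2.21 (adjusted p = 0.000454). The clones lay close together for Cda and Vill and further apart for Scx. With vehicle, Cda and Vill lay near the lowest signal counted as well above background, as did Gpx2 (-3.85) and Uroc1 (-3.79). The folds of these genes are therefore uncertain. Gpx2, a glutathione peroxidase, rose 37.0-fold and 28.0-fold (adjusted p = 0.000176), and Uroc1, the histidine-degrading urocanase, rose 16.7-fold and 16.8-fold (adjusted p = 0.000594). Rab15, a small GTPase of endosome recycling, was at 0.20, 6.09 and 3.87, or 59.4-fold and 12.8-fold higher (adjusted p = 0.00616).

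Bright genes rose as well. Ak1, adenylate kinase, was at 2.38 with vehicle, 5.15 in clone 1 and 5.42 in clone 2 (limma adjusted p = 0.00117). Rnh1, the ribonuclease inhibitor, was at 3.65, 6.33 and 6.25 (adjusted p = 0.00214), and Svbp, a chaperone of the tubulin carboxypeptidase vasohibin, at 4.19, 6.95 and 6.57 (adjusted p = 0.00345). Each gap from vehicle was over 2 log2 units and several times the gap between the clones. Slc22a23, an orphan transporter, rose 6.53-fold and 7.71-fold (adjusted p = 0.0012), and Tmem140 rose 16.5-fold and 34.8-fold (adjusted p = 0.000595). Fancc, a gene of the Fanconi DNA repair pathway, rose 8.90-fold and 4.97-fold with the probe used (adjusted p = 0.00506), while another probe gave log2 differences of 1.08 and 0.91. Of 95 genes at 2-fold in both clones with several measured probes, all probes were past 2-fold in 61 and shared a sign in 87.

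Of 12227 genes measured on all 3 arrays, limma called 39 lower and 182 higher. Rhox5, an X-linked homeobox gene often expressed in tumours, was at 6.26 with vehicle, 3.39 in clone 1 and 3.51 in clone 2, or 7.29-fold and 6.74-fold lower (adjusted p = 0.00117). Gpr137b, a lysosomal membrane protein, was at 6.35, 4.77 and 4.89 (adjusted p = 0.0235), and Gpr137b-ps, its near-identical copy, at 5.66, 4.06 and 4.25, so the pair cannot be assigned with certainty to either gene. Both clones lay below vehicle by more than 1 log2 unit in these genes. The membrane-binding copine Cpne4 (adjusted p = 0.0316), the procollagen-processing protease Adamts14 (adjusted p = 0.0415), the formin Fmnl2 (adjusted p = 0.0442) and the CaM kinase inhibitor Camk2n2 (adjusted p = 0.0451) fell by between 2.25-fold and 3.13-fold in the single clones. Of 2 other Fmnl2 probes, 1 gave log2 differences of -1.68 and -1.05 and 1 gave -1.99 and 0.63. Rapgef2, a Rap exchange factor, was 2.26-fold lower in both and missed the threshold (adjusted p = 0.0586).

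Genes seen on one side only were counted by bounds. Well above background in both clones and not with vehicle were 140 genes, of which 80 had a bound of at least 2-fold in both clones. Seen with vehicle and in neither clone were 571 genes, of which 161 had such a bound. For comparison, 167 genes were seen in clone 1 alone and 236 in clone 2 alone at 2-fold or more over both other arrays, so the vehicle-only count was no higher than the counts for either clone. Among the limma calls, 58 were genes seen in both clones only and 131 genes seen with vehicle only.

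Acox2, Htr2b and Fbp1 were among the 10 clone-only genes with the highest bounds. Acox2, a peroxisomal oxidase of bile acid synthesis, was at 4.54 in clone 1 and 3.21 in clone 2, at least 449-fold and 179-fold above vehicle. Htr2b, a serotonin receptor, was at 1.98 and 1.49, at least 76.1-fold and 54.4-fold higher. Fbp1, the gluconeogenic enzyme fructose-bisphosphatase, was at 1.82 and 0.21, at least 68.5-fold and 22.4-fold higher. In all 3, clone 1 exceeded clone 2. The cartilage collagen genes Col9a3 and Col2a1 were higher by at least 25.1-fold and 20.8-fold and by at least 22.9-fold and 19.6-fold. The 10 vehicle-only genes with the highest bounds had vehicle levels between -0.08 and 0.51 and bounds between 12-fold and 26.2-fold. Of the 161 vehicle-only genes, 55 had another probe, and that probe was well above background with vehicle in 3. Of the 80 clone-only genes, 21 had another probe, which was well above background in both clones for 8.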

How the data were processed

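Each array held RNA of 1 culture, labelled with Cy3 from 0.1 µg of total RNA. The scanner software was Agilent Feature Extraction, version 12.0.3.1, per the submitters' processing notes. The intensity used here is the processed signal, background-subtracted and spatially detrended per the file headers without normalization across arrays. Flags (0 or 1) for outliers, saturation and signal well above background also come from the deposited scanner files. The deposited value table holds the same intensity times 1 constant per array.

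Control spots (3671 per array) and outlier spots (107 to 141) were left out, the log2 signals of a probe's spots were averaged, and each array's 75th percentile was subtracted. Of 56598 probes, 32984 were named through RefSeq accessions of GRCm38.p6 and 23614 were not named here. No genome coordinates of probes are given, because the headers name an older build. Where a gene had several probes (7896 genes), its brightest on average represented it. The test was limma 3.58.1, run in R 4.3.3 on the 3 arrays with lmFit, eBayes with trend and Benjamini-Hochberg adjustment. It has 1 residual degree of freedom, from the 2 clones, and 8.28 prior degrees of freedom, from all genes tested. It assumes that the single vehicle array varies like the clones. It was also run on simulated data, in which genes changed by 2-fold went uncalled. Most genes given larger changes were called there, and so were some unchanged genes. The simulated variances came from the fitted prior, so that run does not test the assumption about the vehicle array. The genes tested were well above background with vehicle or in both clones.

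The members and the 30 lists were chosen with earlier results of these data known. The text names Tmsb4x and Tmsb10, up to 15 genes most higher or lower in both clones and 15 by limma, up to 4 per direction and list at 2-fold or more, 10 per direction by bound, 6 with opposite clones, and genes that define a list. Other genes were picked after their values were seen, and some genes the rule takes in are not reported here. Alternatives covered scaling, background correction, the deposited table, outlier spots, the filter on dim probes, probes per gene, the arrays in the fit and the trend. Other tools were Python 3.11.15, numpy 2.4.6, pandas 2.3.3 and matplotlib 3.10.9.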

Additional observations from a re-analysis of the deposited data

How the results depend on the processing

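The 336 genes at least 2-fold higher and 131 lower in both clones became 216 and 68 with normexp background correction of the median signal, of which 212 and 68 were among the original genes. With genes well above background in 1 group admitted, 455 were higher and 549 lower, so that the share of higher genes went from 71.9% to 45.3%, and over all probes, named or not, 568 were higher and 262 lower. With either clone left out, the other alone gave 555 to 613 genes higher and 256 to 385 lower. Among limma calls (240 higher, 181 lower), 147 were higher and 283 lower without the trend, 47 were higher after quantile normalization, and 292 were lower with the deposited table. Calls fell to 134 higher and 118 lower with the mean of a gene's probes, and to 30 lower among genes measured on all 3 arrays alone. The deposited table shifted the median of all measured genes to -0.25 in clone 1 and 0.05 in clone 2. By the mean of the clones, the matrix list's median of -0.14 became 0.13 with the mean of probes, and that of NF-κB genes went from 0.11 to -0.076 with the other filter on dim probes; the cause was not tested. Over 1220 tested values of single named genes under the alternatives, 1076 kept their direction and side of the threshold, 115 lost the call, 29 gained it and 0 changed direction after being called. Adamts14, Camk2n2, Ccn1 and Scarna13 were called under 4 of 10 alternatives, and Ccnd1, Fmnl2, Gstm3 and Limk2 under 5. Limma without a clone was not run, since no residual degrees of freedom remain. No paired analysis was possible because there was only 1 vehicle array. Signals near background limit the dim genes, most of all on clone 2.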
